A study of Mus musculus with 30 samples.

Results

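Ribosome biogenesis, the making of ribosomes in the nucleolus, was followed through 40 genes in mouse embryonic stem cells from which Nanog was withdrawn and to which it was briefly returned. They were given as a list of names, drawn up with earlier results of these data known. A gene was given by the probe set that the platform table assigned to its symbol alone, and by the brightest such probe set where there were several. Of the 40, 39 were found, among 23385 probe sets tested, and Noc2l was not analysed here.

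Expression was measured on 30 Affymetrix Mouse Gene 1.0 ST arrays, 3 in each of 10 groups, as the log2 signal of a set of probes per transcribed unit, called a probe set below. All samples came from NgR, an AINV15_Nanog_Rescue clone derived from embryonic stem cells that express rtTA, the doxycycline-activated transcription factor. In this clone Nanog, a transcription factor of the pluripotent state, depends on doxycycline. The groups were cells 1, 3 and 5 days after doxycycline withdrawal, the same days followed by 12 h with doxycycline (the pulse) or by 12 h without it (the timed control), and day 0 in 1 ug/ml doxycycline.

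The study used a single clone, kept on primary mouse embryonic fibroblasts. No arrays of cells held on doxycycline over these days, and none of cells with Nanog independent of doxycycline, were used here. Withdrawal and culture time, and Nanog and doxycycline, therefore cannot be told apart. The labels do not say whether the 3 replicates were separate cultures, so p-values measure the spread between these samples, which may be technical.

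Ribosomes are built in the nucleolus, where RNA polymerase I transcribes a long precursor of the ribosomal RNAs. Box C/D and box H/ACA ribonucleoproteins, guided by small nucleolar RNAs, methylate and pseudouridylate that precursor. A large processome then folds and cleaves it into the small subunit, and a separate set of factors assembles the large subunit, before both are exported and finished in the cytoplasm. Embryonic stem cells divide fast, with prominent nucleoli, and Myc is a known activator of many of these genes.

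The promoters of the 2 members with the deepest falls described below, and of the member that stood highest relative to day 0, are shown so that the results can be set beside their sequence. They run from 250 bases before to 50 bases after the start site, from RefSeq on build GRCm38.p6, with any E-box (CACGTG, letters bound by Myc with its partner Max and by other factors) in capitals. Nip7 lies at chr8:107056627-107056926 on the plus strand, Pno1 at chr11:17211540-17211839 on the minus strand and Nop56 at chr2:130274162-130274461 on the plus strand.
Nip7: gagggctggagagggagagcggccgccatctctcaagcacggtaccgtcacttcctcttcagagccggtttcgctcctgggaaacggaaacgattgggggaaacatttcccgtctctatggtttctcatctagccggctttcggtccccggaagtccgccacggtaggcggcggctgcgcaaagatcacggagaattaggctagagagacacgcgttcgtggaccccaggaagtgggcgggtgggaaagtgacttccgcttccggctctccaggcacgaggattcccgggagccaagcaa
Pno1: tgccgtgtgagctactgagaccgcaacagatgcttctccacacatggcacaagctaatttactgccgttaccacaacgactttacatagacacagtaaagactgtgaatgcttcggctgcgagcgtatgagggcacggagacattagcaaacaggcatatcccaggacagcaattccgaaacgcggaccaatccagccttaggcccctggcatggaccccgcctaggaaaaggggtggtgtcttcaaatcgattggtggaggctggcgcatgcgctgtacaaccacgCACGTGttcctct
Nop56: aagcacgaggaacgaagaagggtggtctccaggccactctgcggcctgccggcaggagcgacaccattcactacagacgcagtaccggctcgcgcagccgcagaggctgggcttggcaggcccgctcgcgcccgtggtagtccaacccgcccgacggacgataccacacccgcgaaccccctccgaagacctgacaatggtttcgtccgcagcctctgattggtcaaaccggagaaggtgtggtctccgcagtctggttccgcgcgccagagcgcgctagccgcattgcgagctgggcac
The Pno1 window held 1 E-box, shortly after the start site, and the windows of Nip7 and Nop56 held none.

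RefSeq windows were matched by symbol for 35 of the 40 members. An E-box, searched on both strands, stood in 8 of these 35 genes (22.9%) and in 8 of their 39 windows (20.5%), against 2349 of 32851 windows of all genes (7.15%). Promoters rich in CG letters hold it more often: it stood in 944 of the 8148 windows (11.6%) with at least 21 CG dinucleotides, the median of the members' windows. The 8 E-boxes are shown with up to 10 bases on either side, in capitals, because 7 of them (87.5%) began after the start site, against 361 of 2589 E-boxes (13.9%) in all windows.
Mybbp1a (chr11:72441357-72441376, plus): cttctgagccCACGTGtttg
Wdr43 (chr17:71616222-71616247, plus): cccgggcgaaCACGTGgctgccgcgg
Utp20 (chr10:88826765-88826787, minus): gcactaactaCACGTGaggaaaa
Ltv1 (chr10:13193094-13193119, minus): cctgtggaccCACGTGtggagctgcc
Tsr1 (chr11:74898094-74898119, plus): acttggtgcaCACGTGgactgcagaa
Pno1 (chr11:17211540-17211562, minus): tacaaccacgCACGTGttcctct
Nop2 (chr6:125131813-125131838, plus): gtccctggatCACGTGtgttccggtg
Pes1 (chr11:3963967-3963992, plus): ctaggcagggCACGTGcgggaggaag
The E-box of Nop2 began 60 bases before the start site, and the others between base 3 and base 41 after it. At day 5 of withdrawal these 8 genes differed from day 0 by between −1.12 (Pno1) and −0.17 (Tsr1) on the log2 scale. Pno1 apart, the largest difference among them was −0.58 (Ltv1), and the median over all members was −0.54. A palindromic element of 10 bases that was also searched had no match in the members' windows and stood in 0.466% of all windows. A match describes letters only.

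Nanog, the gene under doxycycline control, was higher in every array with doxycycline than in any array without it. It also varied in its absence, with all day 3 withdrawal arrays above those of day 1. The log2 signal of Nanog was 11.04, 11.05 and 11.01 at day 0, 10.32, 10.23 and 10.17 at day 1, 10.48, 10.48 and 10.57 at day 3 and 10.06, 9.86 and 9.64 at day 5 of withdrawal. Averaged over the 3 days it stood 0.79 ± 0.046 (SE) above the timed control under the pulse. Among the 30 arrays, 4 had the widest spread of values: replicates 2 and 3 of the day 5 control, replicate 2 of the day 3 control and replicate 3 of the day 1 control. Their interquartile ranges were 2.77 to 2.95 on the log2 scale, against 2.43 to 2.71 on the others. All 4 are timed controls, and the pulse comparisons are given below with and without them. Without them the day 5 control is replicate 1 alone, taken to vary like the other groups.

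Most members were near or slightly above their day 0 level after 1 day of withdrawal, and most were lower by day 3 or day 5. A gene was called where limma gave an adjusted p under 0.05. At day 1, 3 members were called higher, 3.49% of all probe sets being called higher, and none was called lower by limma. At an unadjusted p under 0.05, 14 members were higher and 2 lower. The differences of 12 members were below 0 at day 1, the lowest being Nip7 (−0.26 ± 0.096, adjusted p = 0.112) and Pno1 (−0.26 ± 0.099, adjusted p = 0.138), whose arrays all lay below those of day 0. The 3 calls were lost after each array was centred on its median, and without replicate 1 or 3 of day 0 or replicate 3 of day 1 withdrawal, and 1 was left without replicate 2 of day 1 withdrawal. At day 3, 23 of the 39 were called lower, against 14.3% of all probe sets, and 1 was called higher, against 19.6%. At day 5, 35 were called lower, against 18.8%, and none was called higher (none at an unadjusted p under 0.05), against 23.8%. After each array was centred on its median, 19.7% of probe sets were lower and 14% higher at day 3, and 26.2% lower and 19% higher at day 5.

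The median difference over the members was 0.11 at day 1, −0.24 at day 3 and −0.54 at day 5, against 0.022, 0.016 and −0.0059 over all probe sets. At day 5 the differences ran from −1.24 to 0.053, so the signal of Nip7 fell by 57.7% and that of Nop56 was 3.77% above day 0. The arrays of the 2 groups did not overlap, with all withdrawal arrays lower, for 28 members at day 3 (19.7% of all probe sets) and for 36 members at day 5 (25.4%). The day 3 and day 5 comparisons share the day 0 arrays. In these bulk samples, fewer cells of a type and less RNA per cell cannot be told apart.

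**Figure D1:**
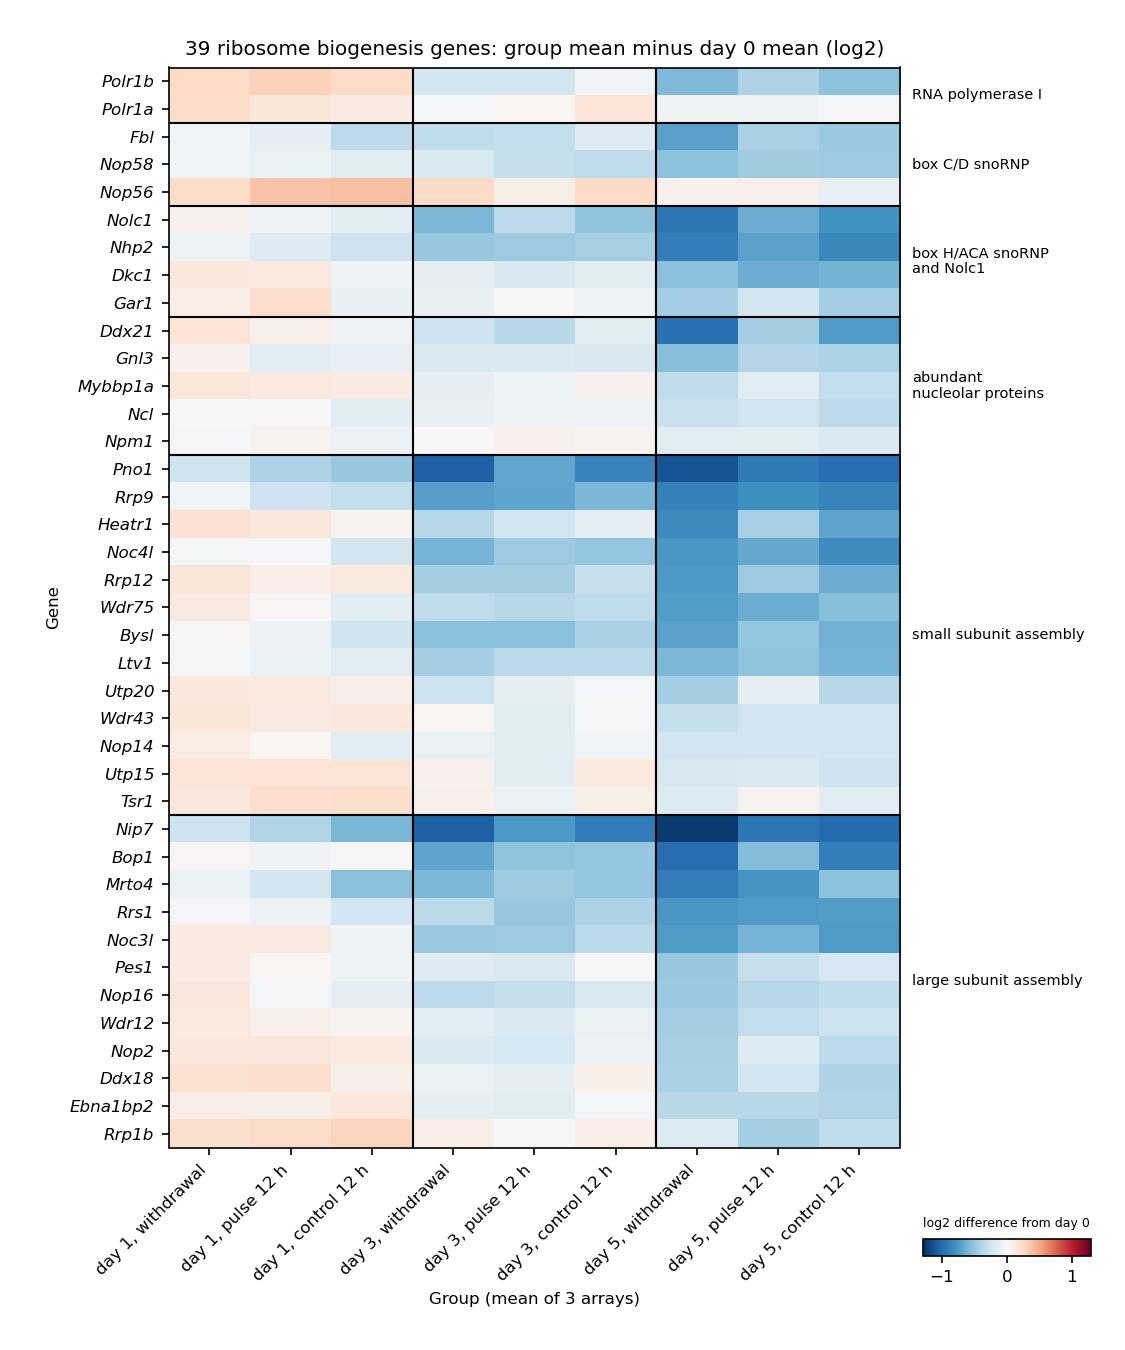
Difference of each group mean from the day 0 mean (log2, colour scale) for the 39 genes (rows, by role and then by the day 5 difference) in the 9 other groups (columns, mean of 3 arrays each). Most rows are near 0 or slightly above it at day 1 and below 0 in all 3 day 5 groups. Nip7 and Pno1 are the deepest at day 3 and day 5 of withdrawal, and Nop56 lies above 0 in every column but the day 5 control.

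The 2 subunits of RNA polymerase I differed from each other. Polr1b, 1 of its large subunits, had 10.59, 10.65 and 10.54 at day 0, 10.89, 10.80 and 10.86 at day 1, 10.43, 10.40 and 10.23 at day 3 and 10.00, 9.99 and 10.07 at day 5. Against day 0 it was higher at day 1, at 0.26 ± 0.073 (SE, adjusted p = 0.0287), and lower at day 5, at −0.57 ± 0.073 (adjusted p = 3.08e-07). Polr1a, the largest subunit, had 9.75, 9.75 and 9.59 at day 0, 10.01, 9.91 and 9.90 at day 1, 9.75, 9.67 and 9.57 at day 3 and 9.70, 9.64 and 9.61 at day 5. All of its day 1 arrays were above all of its day 0 arrays (0.24 ± 0.074, adjusted p = 0.0471), while its day 5 arrays overlapped those of day 0 (−0.044 ± 0.074, adjusted p = 0.684).

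The genes of the box C/D ribonucleoprotein differed from each other. Fbl, fibrillarin, the methyltransferase of the complex, had 11.23, 11.30 and 11.24 at day 0, 11.01, 11.37 and 11.28 at day 1, 10.90, 10.92 and 10.95 at day 3 and 10.69, 10.64 and 10.31 at day 5, and its day 5 arrays lay below those of every earlier day (−0.71 ± 0.093, adjusted p = 5.06e-07). Nop58, a scaffold protein of the complex, stood at −0.53 ± 0.058 (adjusted p = 2.37e-08). A further probe set of Fbl stood at −0.37, so the order of Fbl and Nop58 depends on the probe set. Nop56, the partner scaffold of Nop58, had 12.18, 12.32 and 12.21 at day 0, 12.41, 12.55 and 12.48 at day 1, 12.47, 12.55 and 12.42 at day 3 and 12.24, 12.29 and 12.35 at day 5. It rose at day 1 (0.24 ± 0.066, adjusted p = 0.0226) and was the only member higher at day 3 (0.25 ± 0.066, adjusted p = 0.00442), and at day 5 it was not called (0.053 ± 0.066, adjusted p = 0.557).

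All 4 genes of the box H/ACA group were lower at day 5. Nolc1, a chaperone of nucleolar ribonucleoproteins, had 11.06, 11.05 and 10.99 at day 0, 11.22, 10.91 and 11.14 at day 1, 10.53, 10.29 and 10.53 at day 3 and 10.24, 10.07 and 9.99 at day 5. Its arrays separated from day 0 at day 3 (−0.58 ± 0.092, adjusted p = 1.36e-05) and stayed apart at day 5 (−0.93 ± 0.092, adjusted p = 3.31e-09). Nhp2, a core protein of the complex, fell by a similar amount with a smaller error (−0.90 ± 0.054, adjusted p = 4.27e-13), and Dkc1, the pseudouridine synthase, stood at −0.54 ± 0.062 (adjusted p = 4.77e-08). Gar1, a further core protein, had 10.97, 11.05 and 11.00 at day 0, 10.99, 11.15 and 11.13 at day 1, 10.92, 10.89 and 10.92 at day 3 and 10.73, 10.75 and 10.21 at day 5. Replicate 3 of day 5 was far below the other two, and it had the widest error of the group (−0.44 ± 0.11, adjusted p = 0.00146).

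Among the abundant nucleolar proteins, Ddx21 stood apart. Ddx21, an RNA helicase that acts in ribosomal RNA transcription and processing, had 11.44, 11.40 and 11.29 at day 0, 11.53, 11.58 and 11.58 at day 1, 11.18, 11.13 and 11.03 at day 3 and 10.48, 10.44 and 10.31 at day 5. Every day 5 array of withdrawal lay below every earlier one (−0.97 ± 0.071, adjusted p = 1.61e-11). Gnl3, nucleostemin, stood at −0.56 ± 0.064, Mybbp1a, a nucleolar partner of transcription factors, at −0.33 ± 0.073 and Ncl, nucleolin, at −0.29 ± 0.063 at day 5, all 3 called lower. Npm1, nucleophosmin, had 12.46, 12.59 and 12.52 at day 0, 12.59, 12.50 and 12.44 at day 1, 12.58, 12.59 and 12.38 at day 3 and 12.47, 12.27 and 12.40 at day 5. Its day 5 and day 0 arrays overlapped, and it was not called (−0.14 ± 0.078, adjusted p = 0.147).

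All 13 factors of small subunit assembly were called lower at day 5. Pno1, which binds the late small subunit precursor, had 10.87, 10.92 and 10.93 at day 0, 10.74, 10.59 and 10.61 at day 1, 10.00, 9.76 and 9.76 at day 3 and 9.94, 9.77 and 9.64 at day 5. Every day 3 and day 5 array lay below every day 0 and day 1 array (−1.12 ± 0.099, adjusted p = 5e-10). Rrp9, a protein of the U3 ribonucleoprotein, stood at −0.87 ± 0.080, Heatr1, which links polymerase I transcription to processing, at −0.83 ± 0.075, and Noc4l, known from yeast in small subunit export, at −0.76 ± 0.11. Rrp12, a factor of subunit export, stood at −0.74 ± 0.066, the processome protein Wdr75 at −0.73 ± 0.069, Bysl, bystin, at −0.69 ± 0.061 and Ltv1, a factor of late maturation, at −0.58 ± 0.078.

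The remaining 5 small subunit factors changed less. The processome proteins Utp20 and Wdr43 stood at −0.44 ± 0.090 and −0.31 ± 0.055. Nop14, Utp15 and Tsr1 had the weakest calls of the day, at −0.24 ± 0.083 (adjusted p = 0.0184), −0.21 ± 0.079 (adjusted p = 0.0334) and −0.17 ± 0.062 (adjusted p = 0.0252). Tsr1, a factor related to GTPases that acts late on the small subunit, had 11.02, 11.18 and 11.04 at day 0, 11.19, 11.32 and 11.17 at day 1, 11.12, 11.22 and 11.09 at day 3 and 10.90, 10.94 and 10.87 at day 5. Its day 5 arrays were below those of the other days, while those of days 0, 1 and 3 overlapped.

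Of the 12 measured factors of large subunit assembly, 11 were called lower at day 5. Nip7, which acts on the large subunit precursor, had 10.68, 10.78 and 10.71 at day 0, 10.41, 10.54 and 10.43 at day 1, 9.77, 9.65 and 9.58 at day 3 and 9.73, 9.41 and 9.31 at day 5. Its groups at days 0, 1 and 3 did not overlap, while 1 day 5 array lay within the range of day 3, and its day 5 difference was the largest of any member (−1.24 ± 0.096, adjusted p = 4.76e-11). Bop1, Wdr12 and Pes1 form 1 complex, and stood at −0.99 ± 0.10, −0.45 ± 0.059 and −0.49 ± 0.069, all called lower. A further probe set of Wdr12 stood at −0.75. Bop1 had 10.05, 9.94 and 9.82 at day 0, 10.01, 9.82 and 10.01 at day 1, 9.32, 9.09 and 9.33 at day 3 and 8.80, 8.99 and 9.05 at day 5, with no overlap between days 1, 3 and 5.

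Mrto4, related to a protein of the ribosomal stalk, stood at −0.90 ± 0.11, Rrs1 at −0.76 ± 0.099 and Noc3l, known from yeast in large subunit assembly, at −0.74 ± 0.075 at day 5. Nop16 was at −0.48 ± 0.076, Nop2, an RNA methyltransferase, at −0.43 ± 0.057, the RNA helicase Ddx18 at −0.42 ± 0.077 and Ebna1bp2 at −0.36 ± 0.070. Rrp1b had 9.71, 9.76 and 9.73 at day 0, 10.03, 9.85 and 9.93 at day 1, 9.87, 9.80 and 9.79 at day 3 and 9.58, 9.64 and 9.45 at day 5. Its day 5 arrays were all below those of day 0, yet it was the only large subunit factor not called (−0.18 ± 0.086, adjusted p = 0.0991). Fbl, Wdr12, Ddx18 and Mrto4 had a further probe set, and each of these was also called lower at day 5, at −0.37, −0.75, −0.49 and −0.83. At day 3 the further probe set of Wdr12 was called (−0.37, adjusted p = 0.00149) and the one used here was not (−0.14, adjusted p = 0.0643).

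**Figure D2:**
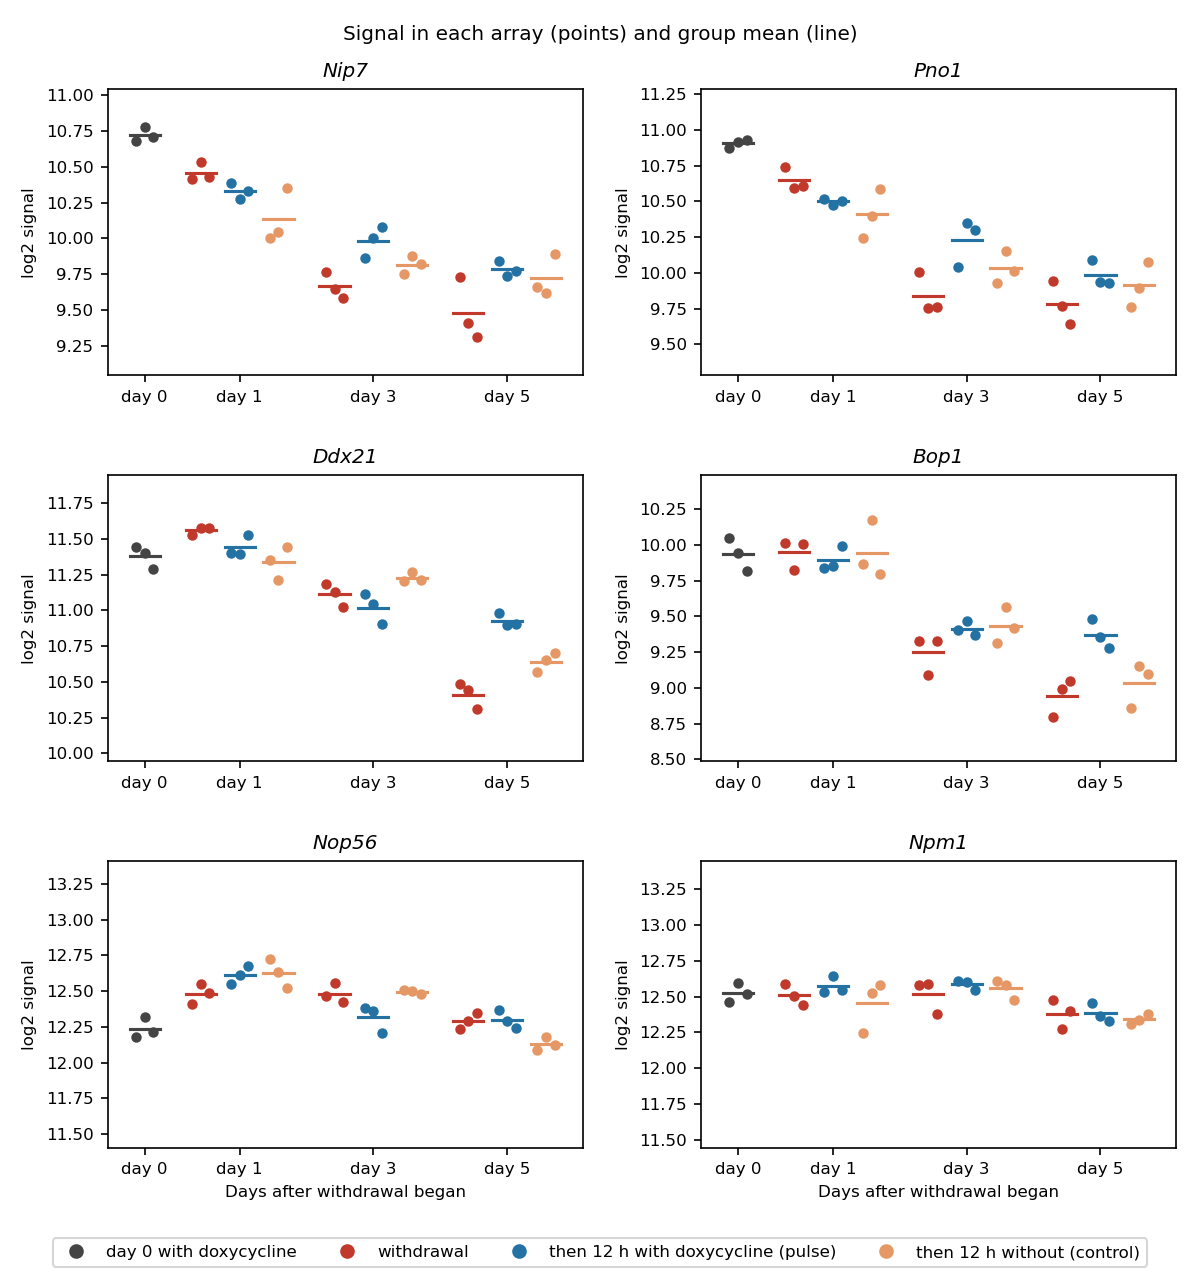
Log2 signal of 6 genes in every array (points) with the group mean (line), over day 0 and, for days 1, 3 and 5, withdrawal, pulse and timed control from left to right. Each panel spans 2 log2 units on its own scale. Nip7 and Pno1 reach their low level at day 3, Ddx21 and Bop1 fall further at day 5 and lie higher in the day 5 pulse than in its control. Npm1 stays close to day 0, and Nop56 lies above it at day 1 and day 3 of withdrawal.

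The members differed in when they fell. From day 1 to day 3, 30 of 39 were called lower (9.77% of all probe sets), and from day 3 to day 5, 26 of 39 (4.75%). The step from day 3 to day 5 gave 16 calls without replicate 3 of day 5 withdrawal and 17 without replicate 1 of day 3 withdrawal. Among the 21 members at or below −0.5 at day 5, the day 3 difference was a median 59.9% of the day 5 difference. It was 95% for Pno1, 85.1% for Nip7, 82.3% for Rrp9, 79.3% for Noc4l, 78.0% for Bysl and 75.4% for Ltv1. None of these 6 was called from day 3 to day 5, with Pno1 at −0.056 ± 0.099 (adjusted p = 0.85) and Nip7 at −0.19 ± 0.096 (adjusted p = 0.27) for that step. That step is the rest of the day 5 difference on the same arrays. For members picked by their share, here and below, it is therefore no separate evidence.

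At the other end, the day 3 difference was 23.5% of the day 5 difference for Dkc1, 27.5% for Ddx21, 34.1% for Gnl3 and 36.6% for Nop58. All 4 fell from day 3 to day 5, with Ddx21 at −0.70 ± 0.071 (adjusted p = 9.9e-08), Dkc1 at −0.42 ± 0.062 (adjusted p = 2.92e-05), Gnl3 at −0.37 ± 0.064 (adjusted p = 0.000185) and Nop58 at −0.34 ± 0.058 (adjusted p = 0.000184) for that step. Factors of small subunit assembly were called lower for 9 of 13 from day 1 to day 3 and for 6 of 13 from day 3 to day 5. Factors of large subunit assembly were called lower for 11 of 12 and 10 of 12. The difference between these shares was not tested.

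A 12 h return of doxycycline addressed how far the changes could be moved back, and few members were called under it. Few of all probe sets were called at day 1 or day 3 either, so the counts alone do not set the members apart. Against the timed control, no member was called at day 1 by limma (8 higher and none lower at an unadjusted p under 0.05), where 3.75% of all probe sets were called in either direction. None was called at day 3 (1 higher and 10 lower at an unadjusted p under 0.05), where 0.0385% of all were called. At day 5, 3 members (7.69%) were called higher, against 5.13% of all probe sets (10 higher and 1 lower at an unadjusted p under 0.05). The median difference over the members was 0.082 at day 1, −0.10 at day 3 and 0.073 at day 5, against 0.012, −0.0092 and 0.023 over all probe sets. Without the 4 widest arrays it was 0.16, −0.061 and 0.19, against 0.0060, −0.017 and 0.0055 over all probe sets. Gar1, Wdr75, Noc3l and Mrto4 were then called higher at day 1 (1.97% of all probe sets). No member was called at day 3, where 0.00855% of all were higher and none lower. At day 5 the control was then replicate 1 alone, the array with the lowest members' mean of its group.

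The 3 genes higher under the day 5 pulse had different roles. Ddx21 had 10.98, 10.90 and 10.90 in pulsed cells, against 10.57, 10.66 and 10.70 in the timed control, without overlap (0.29 ± 0.071, adjusted p = 0.0133). Bop1 had 9.48, 9.35 and 9.28 in pulsed cells, against 8.86, 9.15 and 9.09 in the timed control, also without overlap (0.33 ± 0.10, adjusted p = 0.0318). Heatr1 had 10.50, 10.51 and 10.37 in pulsed cells, against 10.06, 10.26 and 10.29 in the timed control, and the groups again did not overlap (0.26 ± 0.075, adjusted p = 0.0281). These calls changed with the arrays kept. None of the 3 was called without replicate 2 of the day 5 control, 1 without replicate 1 of that control and 1 without replicate 2 of the pulse. A lost call alone does not show that an effect was smaller. Without the 4 widest arrays, replicate 1 alone stood for that control. The median day 5 difference over the members was then 0.19, against 0.073 with all arrays. The members' mean in that replicate was 10.29, below the 10.43 and 10.44 of the control arrays left out.

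The pulse effect on Ddx21 differed between days. At day 3 it had 11.11, 11.04 and 10.90 in pulsed cells, against 11.21, 11.27 and 11.22 in the timed control, with all pulsed arrays lower (−0.21 ± 0.071, adjusted p = 0.202). The day 5 effect exceeded the day 3 effect by 0.50 ± 0.10 (SE, adjusted p = 0.0223), and this was the only member for which a difference between pulse effects was called. The call was lost without the 4 widest arrays (0.55 ± 0.12, adjusted p = 0.0643), without replicate 1 of the day 3 control (adjusted p = 0.0551), without replicate 3 of the day 3 pulse (0.44 ± 0.10, adjusted p = 0.0963) and without replicate 2 of the day 5 pulse (adjusted p = 0.055). The direction was not particular to Ddx21: the day 5 effect exceeded the day 3 effect for 32 of the 39 members. The median of this difference was 0.11, against 0.042 over all probe sets. Nop2 (0.32 ± 0.081, adjusted p = 0.0531) and Tsr1 (0.34 ± 0.088, adjusted p = 0.0546) came next to a call in limma. Bop1 at day 3 had 9.40, 9.47 and 9.37 in pulsed cells, against 9.32, 9.56 and 9.42 in the timed control. These groups overlapped (−0.019 ± 0.10, adjusted p = 0.949).

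Averaged over the 3 days, only Gar1 was called, higher in pulsed cells (0.19 ± 0.063, adjusted p = 0.034), where 6.80% of all probe sets were called higher. Gar1 had 11.24, 11.22 and 11.25 in pulsed cells at day 1, against 10.86, 10.69 and 11.19 in the timed control, and 10.70, 10.80 and 10.80 in pulsed cells at day 5, against 10.54, 10.58 and 10.57 in the timed control. Pulsed arrays were higher on both days, without overlap, while at day 3 they had 10.92, 11.18 and 10.92, against 10.91, 10.98 and 10.99 in the timed control, with overlap. No member was called without replicate 2 of the pulse or of the control of any of the 3 days, without replicate 1 of the day 1 pulse or without replicate 3 of the day 5 pulse. There were 3 calls without replicate 3 of the day 1 control and 2 without replicate 1 of the day 3 pulse.

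The next largest averages were not called: Nip7 at 0.14 ± 0.056 (adjusted p = 0.0678), Noc4l at 0.14 ± 0.064 (adjusted p = 0.121) and Nolc1 at 0.13 ± 0.053 (adjusted p = 0.0674). Nip7 had 9.84, 9.74 and 9.78 in pulsed cells at day 5, against 9.66, 9.62 and 9.89 in the timed control, and the groups overlapped. Nolc1 had 10.42, 10.35 and 10.40 in pulsed cells at day 5, against 10.24, 10.21 and 10.30 in the timed control, and all pulsed arrays were higher. Noc4l had 9.51, 9.18 and 9.31 in pulsed cells at day 5, against 9.02, 9.34 and 9.23 in the timed control, with overlap. Over all 39 members the average effect ran from −0.079 to 0.19, with a median of 0.030 against 0.011 over all probe sets. Without the 4 widest arrays the median was 0.079, against −0.0017 over all probe sets, Utp20 was called (0.18 ± 0.048, adjusted p = 0.0465) and Gar1 was not (0.25 ± 0.071, adjusted p = 0.068).

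**Figure D3:**
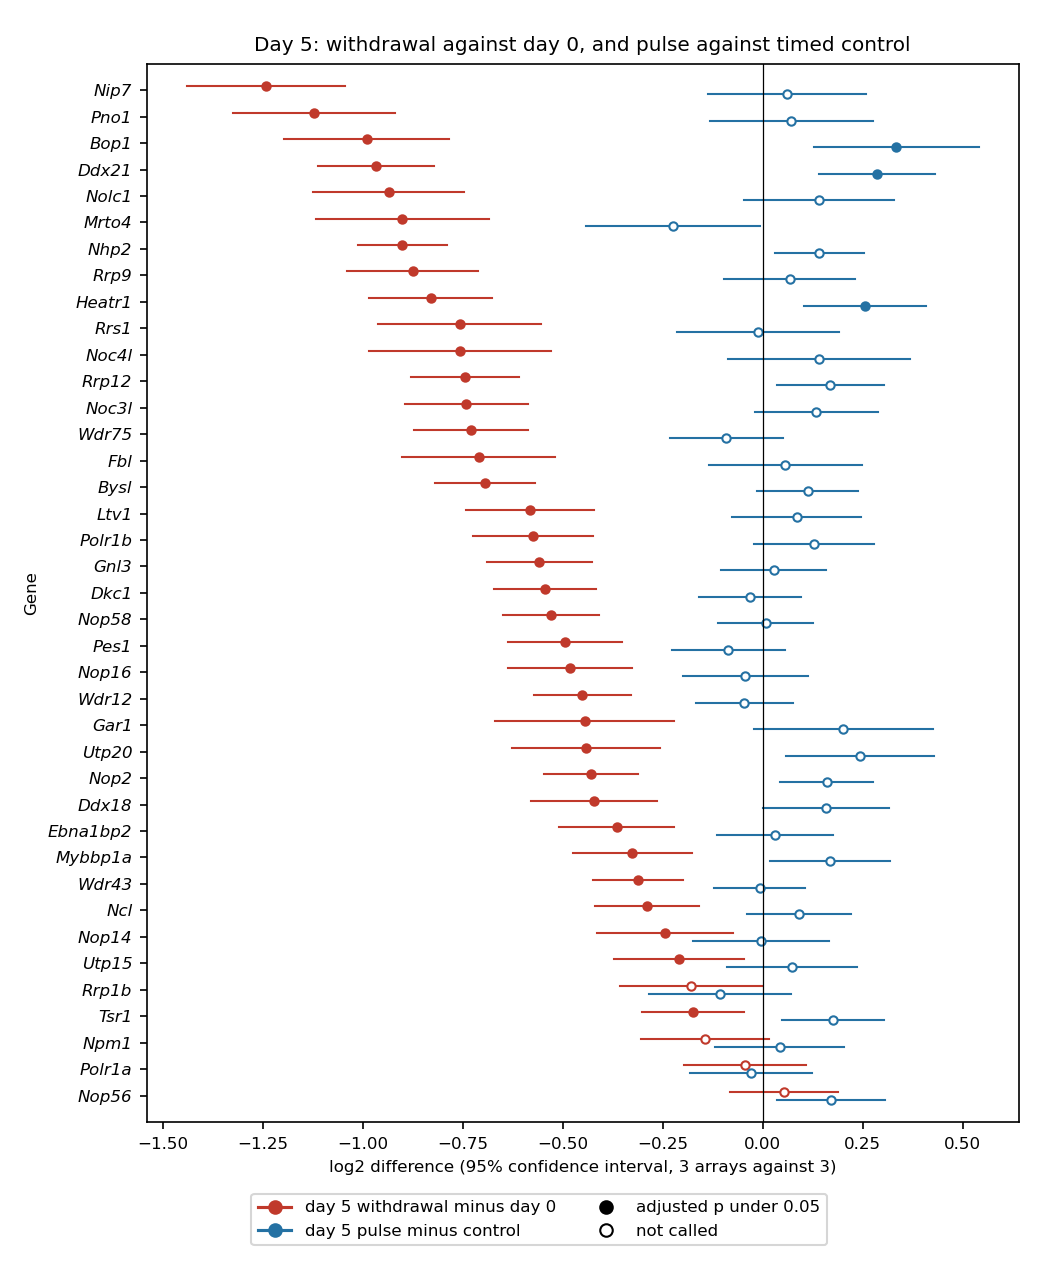
For each of the 39 genes (rows, in order of the withdrawal difference), the log2 difference of day 5 withdrawal from day 0 (red) and of the day 5 pulse from its timed control (blue), with 95% confidence intervals from 3 arrays against 3; filled points have an adjusted p under 0.05. The red points run from −1.24 to 0.053 and the blue ones from −0.22 to 0.33, with 3 blue points filled.

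Set directly against day 0, a comparison added after the values were seen, pulsed cells were called lower for 25 members at day 3 (10.9% of all probe sets) and 32 at day 5 (17.8%). Pno1 had 10.09, 9.94 and 9.93 in pulsed cells of day 5, against 10.87, 10.92 and 10.93 at day 0, without overlap (−0.92 ± 0.099, adjusted p = 2.2e-08). Of the members called lower at day 5 of withdrawal, Gar1, Mybbp1a, Utp20 and Tsr1 were not called in pulsed cells against day 0, with Tsr1 at 0.042 ± 0.062 (adjusted p = 0.651) and Utp20 at −0.12 ± 0.090 (adjusted p = 0.31). Rrp1b went the other way: it had 9.48, 9.19 and 9.22 in pulsed cells of day 5, against 9.71, 9.76 and 9.73 at day 0, and was called lower (−0.44 ± 0.086, adjusted p = 0.00016). The pulsed cells were 12 h older than the withdrawal group, and their timed control had 9.21, 9.52 and 9.47.

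The timed controls show what a further 12 h without doxycycline did. At day 1, 7 members were called lower in the control than in the withdrawal group of that day (1.23% of all probe sets). At an unadjusted p under 0.05, 19 were lower and 1 higher. Mrto4 had 10.00, 9.92 and 10.47 in the control, against 10.60, 10.54 and 10.63 at day 1 of withdrawal, without overlap (−0.46 ± 0.11, adjusted p = 0.0106), and Nip7 had 10.00, 10.04 and 10.36, against 10.41, 10.54 and 10.43 (−0.32 ± 0.096, adjusted p = 0.0423). The other five were Nhp2, Rrp9, Wdr75, Bysl and Nop16, at −0.20, −0.28, −0.26, −0.28 and −0.26. The count of members called lower was 2 without replicate 2 of day 1 withdrawal or without replicate 2 of the control. It was 3 without replicate 3 of day 1 withdrawal and 4 without replicate 1 of the control. Without the 4 widest arrays it was 13 (3.06% of all probe sets).

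At day 3 no member was called between control and withdrawal by limma (9 higher and 1 lower at an unadjusted p under 0.05), where 1.69% of all probe sets were called. At day 5, 1 was called higher in the control (2.32% of all probe sets). It was Pes1, with 10.78, 10.84 and 10.80 in the control, against 10.50, 10.62 and 10.46 at day 5 of withdrawal (0.28 ± 0.069, adjusted p = 0.0226), and no call remained without replicate 2 or 3 of that control or replicate 3 of that withdrawal group, while 5 were called without replicate 1 of the control.

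Other genes of the pathway, from lists chosen for their roles, moved in the same direction at day 5. Of all probe sets, 18.8% were called lower and 23.8% higher at that day. Of 10 other RNA polymerase I genes measured, 7 were called lower, among them the subunit Polr1e (−0.81 ± 0.077) and the initiation factor Ubtf (−0.81 ± 0.075). Of 44 other small subunit factors, 36 were lower and 1 higher, with Nop10, a core protein of box H/ACA particles that was placed in this list, at −1.24 ± 0.080, Wdr46 at −1.05 ± 0.086 and Imp4 at −0.90 ± 0.071. Of 44 other large subunit factors, 37 were lower and 1 higher, with Rpf2 at −1.16 ± 0.098, Rsl24d1 at −1.12 ± 0.081 and Senp3 at −0.84 ± 0.060. Of 13 genes of the exosome, the complex that trims and degrades RNA, 11 were lower, led by Exosc7 (−0.93 ± 0.11).

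The ribosomal proteins themselves changed less. Of 55 cytosolic ribosomal protein genes measured, 29 were lower and 1 higher at day 5, with a median of −0.14, while the members' median was −0.54. Rpl37a was at −0.69 ± 0.082 and Rps29 at −0.62 ± 0.12. Their values are uncertain, since these genes have many near-identical copies that can share probes. From day 3 to day 5 their median was 0.017, while that of the members was −0.27. Of 19 genes for RNA polymerase III, which transcribes small RNAs including a ribosomal one, 6 were lower and 3 higher, with Gtf3c6 at −0.87 ± 0.10 and Polr3k at −0.84 ± 0.094 and with Gtf3c1 at 0.48 ± 0.078. Over all probe sets, 18.8% were called lower and 23.8% higher at day 5. The differences between these lists were not tested.

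**Figure D4:**
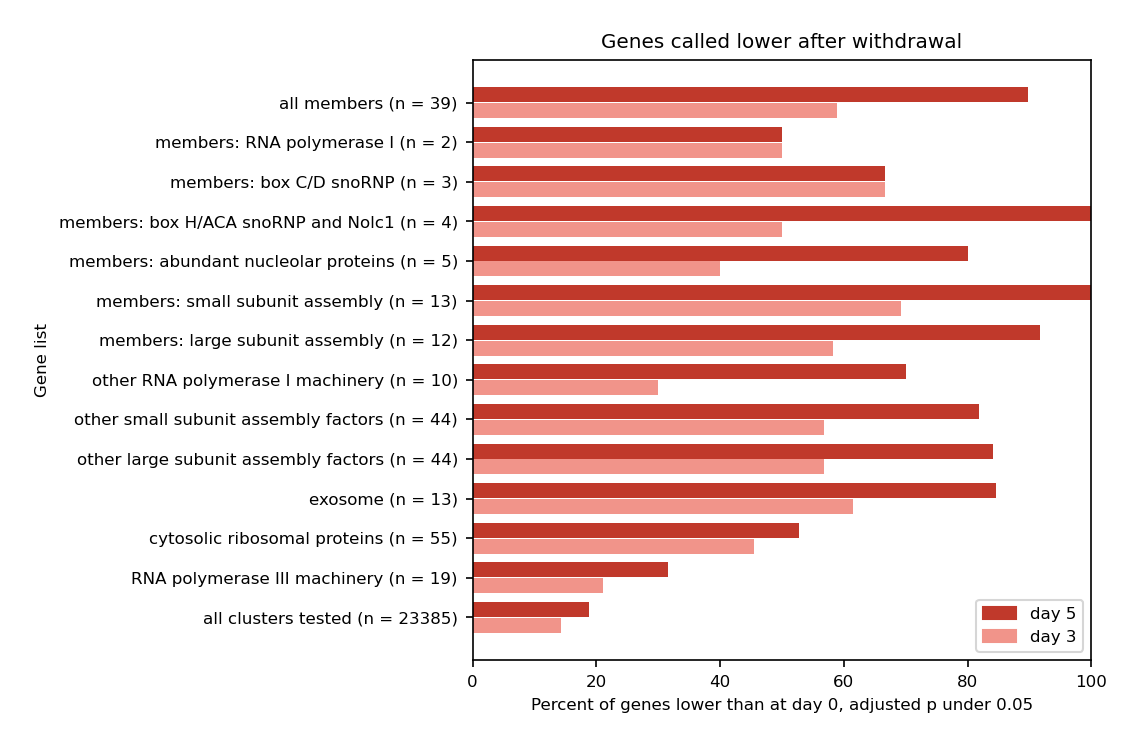
Percent of the genes of each list (rows, number of measured genes in brackets) called lower than day 0 by limma at day 5 (dark) and day 3 (light). The bar of the 39 members stands for 35 genes at day 5 and 23 at day 3, and the bottom bars for 18.8% and 14.3% of all 23385 probe sets.

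Myc and Mycn, whose proteins bind the E-box, were both lower at day 5. Myc had 9.26, 9.37 and 9.15 at day 0, 9.48, 9.31 and 9.47 at day 1, 8.15, 7.94 and 7.85 at day 3 and 7.20, 7.17 and 7.19 at day 5, and its groups did not overlap from day 1 on (−2.07 ± 0.13, adjusted p = 7.17e-13). Mycn had 10.78, 10.73 and 10.63 at day 0, 11.25, 11.13 and 11.22 at day 1, 10.74, 10.60 and 10.63 at day 3 and 9.46, 9.36 and 9.39 at day 5. It was called higher at day 1 (0.49 ± 0.085, adjusted p = 0.000382), was not called at day 3 (−0.052 ± 0.085, adjusted p = 0.695) and was lower at day 5 (−1.31 ± 0.085, adjusted p = 1.65e-12). Max, their binding partner, was not called at day 5 (0.079 ± 0.12, adjusted p = 0.653). Of the 11 genes of the Myc family and its partners, 3 were lower and 1 higher, against 18.8% and 23.8% of all probe sets. The other two called were Mlx at −0.59 ± 0.086 and Mga at 0.54 ± 0.092.

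Under the day 5 pulse Myc was called higher: it had 8.66, 8.45 and 8.67 in pulsed cells, against 7.94, 8.08 and 8.44 in the timed control (0.44 ± 0.13, adjusted p = 0.0289). It was not called without the 4 widest arrays (0.65 ± 0.15, adjusted p = 0.0755), without replicate 1 or 2 of the control (adjusted p = 0.059 and 0.127) or without replicate 2 or 3 of the pulse (adjusted p = 0.0538 and 0.119). The timed control in turn stood above the withdrawal group of the same day, 7.94, 8.08 and 8.44 against 7.20, 7.17 and 7.19 (0.97 ± 0.13, adjusted p = 7.6e-05), so that Myc rose over those 12 h also without doxycycline. Mycn was not called in the day 5 pulse (−0.11 ± 0.085, adjusted p = 0.35). The pulsed level of Myc at day 5 was below every day 0 array, and 3 of the members were called under that pulse.

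**Figure D5:**
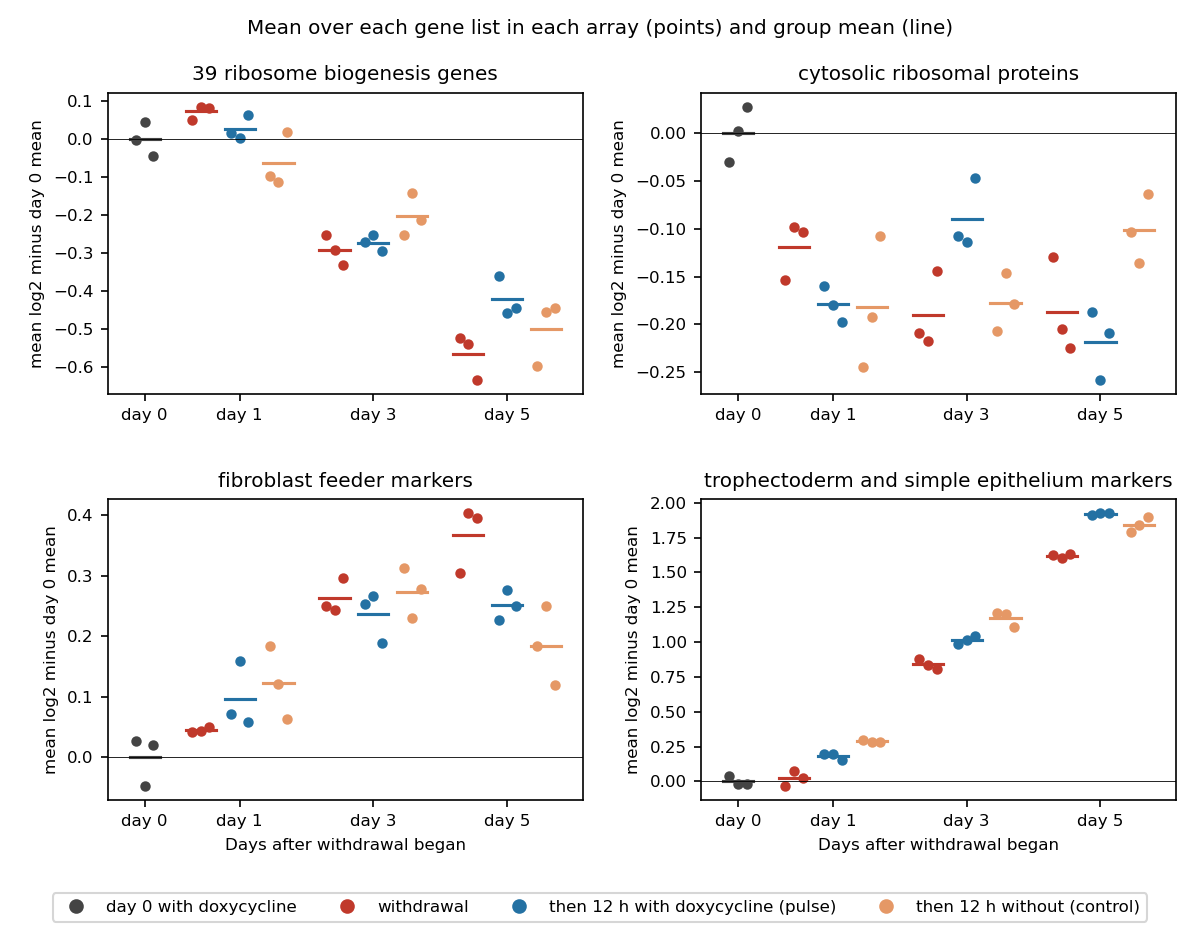
Mean log2 signal over each of 4 gene lists in every array, as the difference from the day 0 mean (points; line, group mean), for day 0 and, at days 1, 3 and 5, withdrawal, pulse and timed control from left to right; the vertical scales differ. The mean of the 39 members lies below 0 in every array of days 3 and 5, and the fibroblast and epithelial markers lie above 0 there.

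Markers of cell types and states also changed over withdrawal, some in the direction of the members and some in the opposite one. Of 12 embryonic stem cell markers, 9 were called lower at day 5, where 18.8% of all probe sets were lower and 23.8% higher. Zfp42 was at −1.80 ± 0.097 and Pou5f1 at −1.29 ± 0.088, while Sall4 (−0.036 ± 0.071) and Lin28a (−0.067 ± 0.074) were not called. Of 8 markers of trophectoderm and simple epithelium, 6 were higher, with Krt7 at 3.39 ± 0.063 and Krt18 at 2.89 ± 0.075, and their mean per array was 9.49 to 9.52 at day 5 of withdrawal, against 7.86 to 7.92 at day 0. Of 15 measured fibroblast markers, 9 were higher and 1 lower, with a mean per array of 8.07 to 8.17 at day 5 of withdrawal, against 7.71 to 7.79 at day 0. Col1a2 was at 1.00 ± 0.063 and Mmp2 at 1.00 ± 0.092, while the fibroblast markers Dcn (−0.022 ± 0.12) and Lum (−0.14 ± 0.11) were not called. Array signals have no true zero, so no marker can be called absent.

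The members' mean per array was 10.25 to 10.36 at day 5 of withdrawal, against 10.84 to 10.93 at day 0. In the day 5 pulse it was 10.43 to 10.53, against 10.29 to 10.44 in its timed control, and the 2 ranges overlapped slightly. The fibroblast mean in that pulse was 7.99 to 8.04, against 7.88 to 8.01 in its timed control, and the epithelial mean was 9.79 to 9.81, against 9.67 to 9.78. The part of feeder cells or of differentiating cells in the members' changes was not tested.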

How the data were processed

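The deposited values are log2 signals per transcript cluster, called probe set here. Per the submitters' processing notes, the authors used RMA and Affymetrix Expression Console. RMA subtracts background, brings the arrays to a common distribution and combines probes. Versions, annotation release and build are not given in the sources used here. Arrays have no read depth, and 3 arrays per group limit the precision.

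Of 28815 clusters, 21780 had 1 gene symbol in the platform table, 1605 several and 5430 none; the 23385 with a symbol were tested. All 30 arrays were fitted in limma 3.58.1 (R 4.3.3), 1 mean per group and no covariate. Benjamini-Hochberg adjustment ran over all tested clusters of a contrast, called under 0.05. The fit was tested on simulated data. Errors beside differences are standard errors. Replicates held no identical pairs.

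The members and lists were chosen with earlier results of these data known. Values in each array are given for the members with the largest and smallest day 5 fall of each role, the 4 with the largest average pulse effect, those called under the day 5 pulse, and Nanog and Myc. The alternatives were trend and robust variances, median centring, a low-signal filter, a replicate block, the array interquartile range as covariate, the 4 widest arrays left out, the compared groups alone, all clusters of a gene averaged, and each array left out.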

Additional observations from a re-analysis of the deposited data

Results flagged for a closer look

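The pulse effect on Ddx21 differed between 2 days under the same contrast, pulse against timed control. It was 0.29 ± 0.071 (adjusted p = 0.0133) at day 5 and −0.21 ± 0.071 (adjusted p = 0.202) at day 3, and the difference of the 2 effects was 0.50 ± 0.10, adjusted p = 0.0223 in limma. All 3 pulsed arrays were above the timed control at day 5, and all 3 were below it at day 3. No other member passed the test of a difference between days, though the day 5 effect exceeded the day 3 effect for 32 of the 39. The call was lost without the 4 widest arrays (adjusted p = 0.0643).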

How the results depend on the processing

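The counts of members lower at day 3, at day 5 and from day 1 to day 3 stayed within 1.5 times under every alternative, and no called value of a member reversed. Leaving out each array in turn gave 19 to 23 lower at day 3 and 32 to 35 at day 5, with Nop14, Utp15 and Tsr1 the only calls lost at day 5. It gave 26 to 32 lower from day 1 to day 3, 16 to 22 lower from day 3 to day 5, and 0 to 2 higher at day 1. Under the pulse it gave 0 to 2 higher at day 1, 0 to 2 at day 5 and 0 to 3 on average. For the timed control it gave 2 to 9 lower at day 1 and 0 to 5 higher at day 5. For pulsed cells against day 0 it gave 20 to 24 lower at day 3 and 28 to 32 at day 5.

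With each array's interquartile range as a covariate, day 1 of withdrawal had 2 lower (4.89% of all probe sets) and 8 higher (7.08%). The control had 18 lower at day 1 (3.29%) and 1 lower at day 5 (3.1%). The pulse then had 5 higher at day 1, 10 at day 5 and 6 on average, against 1.74%, 1.25% and 1.53% of all probe sets. Without the 4 widest arrays, day 1 of withdrawal had 1 lower (4.26% of all probe sets). At day 1 the pulse then had 4 higher (1.97%) and the control 13 lower (3.06%). With only the compared groups fitted, which leaves fewer arrays to estimate the spread, day 1 of withdrawal had 0 higher (2.73% of all probe sets). The step from day 3 to day 5 had 17 lower (3.82%), and the day 5 pulse 0 higher (0%). The day 1 control had 0 lower (0.047%) and the day 5 control 0 higher (0.0727%).

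Trend and robust variances gave 6 higher in the day 5 pulse (5.15% of all probe sets) and 2 on average (6.72%). They gave 1 higher in the day 3 control (1.59%) and 3 in the day 5 control (2.95%). Leaving out the dimmest 40 percent, which tests fewer genes, gave 1 higher under the pulse at day 1 (1.13% of those tested). It gave 5 higher under the pulse at day 5 (3.14%) and 3 on average (5.15%). In the controls it gave 11 lower at day 1 (2.8%), 1 higher at day 3 (3.1%) and 3 higher at day 5 (5.27%). Median centring gave 0 higher at day 1 of withdrawal (2.51% of all probe sets) and 2 higher in the day 5 control (2.69%). Apart from these named constructions, the cause was not tested.

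No pairing of arrays by replicate number was seen, which does not exclude one. Deviations of same-numbered arrays of other groups correlated with a median of −0.0059 over 135 pairs, 36 of them over 0.1. The median was 0.0042 over 270 pairs of other numbers, 89 over 0.1. Same-numbered pairs ran from −0.72 to 0.57. The fit with the number as a replicate block gave 35 lower at day 5, 23 lower at day 3, 2 higher at day 1, 23 lower from day 3 to day 5 and 3 higher in the day 5 pulse, and moved no count by more than 1.5 times. RMA brings the arrays to a common distribution before it combines probes, so a change in total RNA per cell is not measured. The deposited values still differed in spread, with interquartile ranges of 2.43 to 2.95. The 3 arrays per group limit what small pulse effects can show.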
